A study of Mus musculus with 16 samples.

Results

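Nuclear genes that encode subunits of the mitochondrial respiratory chain were followed across 16 libraries of mouse brachiocephalic artery. They were taken from the deposited counts by symbol: the Nduf subunit genes of complex I, Sdha to Sdhd of complex II, the Uqcr genes and Cyc1 of complex III, the Cox4 to Cox8 genes of complex IV and the Atp5 genes of complex V. Cox7a1 and Cox8b were left out, because they serve below as brown adipocyte markers. The rule found 84 of the 55356 named genes: 37 in complex I, 4 in complex II, 9 in complex III, 17 in complex IV and 17 in complex V. Ndufa4 stands with complex I by its symbol, although its protein is now counted among the subunits of complex IV. After the filter on low counts 80 members were tested, and Cox6b2, Cox6c2, Cox7b2 and Cox8c were not.

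The brachiocephalic artery is a branch of the aortic arch that forms atherosclerotic plaques in mice without Apoe, the apolipoprotein that clears lipoproteins from plasma. All 16 mice were female, lacked Apoe and received a Western-type diet (0.2% cholesterol, 21.2% fat) from 6 weeks of age. The 4 groups of 4 mice were Apoe-/- and Apoe-/-Mif-/- mice after 24 weeks of diet (30 weeks of age) and after 42 weeks (48 weeks of age). Mif encodes macrophage migration inhibitory factor, a cytokine. Whole-vessel lysates of 3 to 4 frozen sections of 5 µm were pooled per mouse, so each library mixes plaque, vessel wall and whatever tissue adhered to it, and 1 ng of RNA was amplified by Smart-seq2, a full-length protocol without molecular identifiers.

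Complexes I and II pass electrons from NADH and succinate to ubiquinone, complex III passes them on to cytochrome c, and complex IV reduces oxygen. Complexes I, III and IV pump protons, and complex V, the ATP synthase, uses the resulting gradient to make ATP. Most subunits come from nuclear genes spread over many chromosomes and the rest from mitochondrial DNA, and the whole set is known to be expressed at high levels in brown fat, heart and skeletal muscle.

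Total counts ran from 378066 to 8649518 per library. Members held between 5638 and 180160 of them, and 79 to 84 of the 84 members had at least 1 count in each library. CPM below is the count of a gene relative to the library total after TMM scaling, and because it is not corrected for transcript length it is compared only between libraries, never between genes. Mif ran from 23.2 to 301 CPM in the 8 Apoe-/- libraries and from 2.4 to 19.9 CPM in the 8 Apoe-/-Mif-/- libraries, without overlap. Apoe was at or below 194 CPM in 15 libraries and at 1127 CPM in library 4 of Apoe-/- at 42 weeks, and counts per gene do not show which exons were read. The codes in the column names carry the letter C for the 4 libraries of Apoe-/-Mif-/- at 24 weeks and B for the 12 libraries of the remaining groups. What the letter stands for is not stated, and letter and group cannot be told apart there. Comparisons of the genotypes at 42 weeks and of the durations in Apoe-/- lay within letter B, and the others joined both letters. In tissue RNA of this kind, fewer cells of a type and less RNA per cell cannot be told apart.

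The members were present at very unequal levels within 2 of the 4 groups. In Apoe-/- at 24 weeks the summed level of all members was 90980 CPM in library 1, against 10980, 13470 and 25710 CPM in libraries 2 to 4. In Apoe-/-Mif-/- at 42 weeks it was 64800 CPM in library 2, against 25210, 10700 and 26940 CPM in libraries 1, 3 and 4. Apoe-/-Mif-/- at 24 weeks gave 11980, 14230, 17430 and 22690 CPM and Apoe-/- at 42 weeks 11880, 22130, 19430 and 21090 CPM. The ranges of all 4 groups overlapped, and those 2 libraries stood above the other 14, which lay between 10700 and 26940 CPM.

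**Figure D1:**
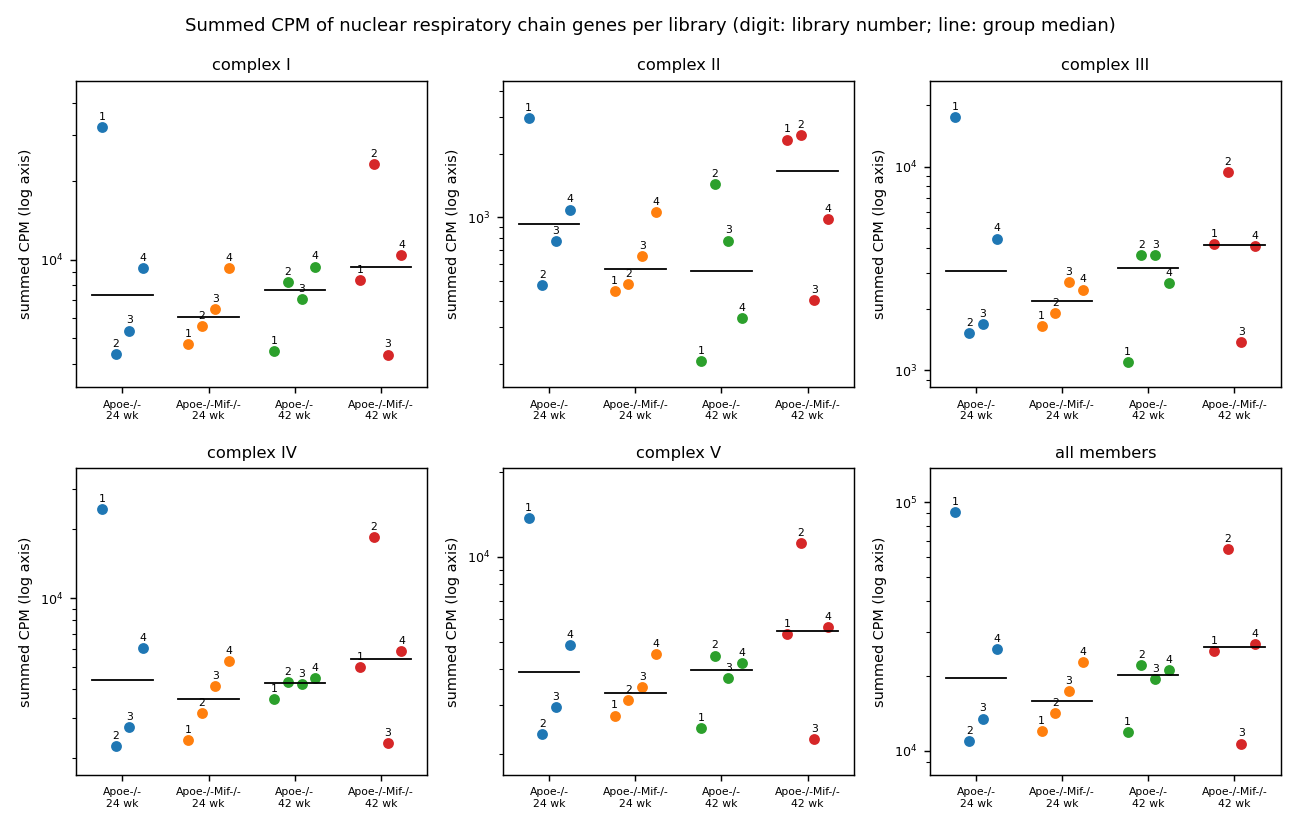
Summed CPM (log axis) of the members of each complex and of all members, 1 point per library, numbered 1 to 4 within each group, with the group median as a line. Library 1 of Apoe-/- at 24 weeks is the highest of 16 in every panel, at 90980 CPM for all members, followed by library 2 of Apoe-/-Mif-/- at 42 weeks at 64800 CPM.

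All 5 complexes shared this pattern. Complex I summed to 32230, 4347, 5348 and 9271 CPM in the Apoe-/- libraries at 24 weeks, complex III to 17540, 1524, 1683 and 4432 CPM, and complex IV to 24530, 2266, 2732 and 6053 CPM. Complex V, the ATP synthase, gave 13700, 2361, 2941 and 4860 CPM. Complex II departed most from the others at 42 weeks, where it varied in both genotypes. Its summed level was 206.6, 1437, 774.7 and 330.6 CPM in Apoe-/- and 2351, 2461, 403.7 and 980.1 CPM in Apoe-/-Mif-/-, so that libraries 1 and 2 of the latter lay close together for complex II and apart for the other complexes. Complex IV was the most even in Apoe-/- at 42 weeks, at 3640, 4306, 4224 and 4468 CPM.

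In library 1 of Apoe-/- at 24 weeks, 73 of the 80 tested members were the highest of their group and 51 the highest of all 16 libraries. Its median member stood 6.42 times above the median of the other 3 mice, while the median of all genes tested stood at 0.607 times. By complex this ratio was 6.24 for complex I, 3.72 for II, 8.28 for III, 9.07 for IV and 5.24 for V. It ran from 0.441 for Cox7a2l, a Cox7a relative that helps to join complexes III and IV into supercomplexes, to 16.8 for Cox6a2, the muscle form of Cox6a. Of the 80, 3 did not exceed the median of the other mice there: Cox7a2l and 2 subunits of complex V, Atp5g1 and Atp5j, the latter at 118 CPM against 125, 140 and 153 CPM. In library 2 of Apoe-/-Mif-/- at 42 weeks, 52 members were the highest of their group and 19 the highest of all, with a median ratio of 3.07 against 0.589 for all genes tested. These ratios describe libraries that were singled out for their levels, and carry no test.

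The spread between mice of a group was wide for members and for other genes. The median over members of the SD within groups was 1.16 on the log2 CPM scale, and for 4191 other tested genes with mean levels in the same range (39.1 to 785 CPM) it was 1.79. Taking each member relative to the median member of its own library reduced the median of this within-group SD from 1.16 to 0.794 on the log2 scale. That reference comes from the same members, and no other set of genes was put through the step for comparison. After that step the most variable members were Cox4i2, the hypoxia-responsive form of Cox4 (1.86), Ndufs1, a core subunit that carries iron-sulfur clusters (1.57), Sdhd, a membrane anchor of complex II (1.54), and Cox7a2l (1.52). In Apoe-/- at 42 weeks Cox4i2 had 1, 2, 1 and 3 counts, and Sdhd had 0 counts in library 1.

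The promoters of such genes are known to carry sites for NRF1 and for the ETS factor GABPA, which is the reason the following windows are shown. The RefSeq table (build GRCm38.p6) held promoter windows for 67 of the 84 members, from 250 bases before to 50 bases after the start. The letters GCATGCGC, the core of the NRF1 motif, stood on either strand in 10 of the 67 (14.9%), against 3.9% of 17425 other protein-coding genes and 3.05% of all 27025 genes in the table. CCGGAAG, the core of the ETS motif, stood in 17 (25.4%), against 12.9% of the other protein-coding genes and 9.93% of all. Among 61 cytosolic ribosomal protein genes with a window the ETS core stood in 39.3% and the NRF1 core in 4.92%, so a high share of the ETS core was not found for the members alone. TATAAA stood in 7 (10.4%), against 14.8% and 15.7%. At least 1 of the first 2 motifs was found in 22 of the 67 members (32.8%), against 16% of the other protein-coding genes and 44.3% of the ribosomal protein genes. In complex I it was 7 of 33 (21.2%), near that background, and in complex V 7 of 15 (46.7%). The 120 bases before the start of 1 described member of each of complexes I to IV read as follows, 5′ to 3′ on the strand of the gene, with capitals for the NRF1 core in Sdhb and for the ETS core, in either orientation, in the others.
Ndufb7, chr8:83566638-83566757, plus strand: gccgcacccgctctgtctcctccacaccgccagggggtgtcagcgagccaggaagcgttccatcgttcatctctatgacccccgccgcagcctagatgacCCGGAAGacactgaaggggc
Sdhb, chr4:140961151-140961270, plus strand: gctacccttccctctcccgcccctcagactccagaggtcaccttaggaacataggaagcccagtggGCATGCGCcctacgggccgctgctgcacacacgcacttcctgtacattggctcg
Uqcr11, chr10:80406822-80406941, minus strand: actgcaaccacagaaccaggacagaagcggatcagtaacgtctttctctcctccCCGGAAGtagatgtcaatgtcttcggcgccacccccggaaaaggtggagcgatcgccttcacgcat
Cox6a1, chr5:115348959-115349078, minus strand: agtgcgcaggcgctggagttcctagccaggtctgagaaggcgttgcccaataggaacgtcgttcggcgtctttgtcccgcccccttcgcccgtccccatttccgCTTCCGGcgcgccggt
A match of letters is a description and was not tested as a binding site. Of these 4 genes, all were highest of the 16 libraries in library 1 of Apoe-/- at 24 weeks except Ndufb7, which was highest in library 2 of Apoe-/-Mif-/- at 42 weeks.

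Markers of brown and white fat were highest in the libraries highest in members, while skeletal muscle markers were so only in Apoe-/- at 24 weeks. Cardiac muscle markers, given below with Cox6a2, were highest in Apoe-/-Mif-/- at 24 weeks. The 9 brown adipocyte markers summed to 17480, 64.5, 240.2 and 3790 CPM in Apoe-/- at 24 weeks and to 292.8, 5776, 51.96 and 2489 CPM in Apoe-/-Mif-/- at 42 weeks, so that the library highest in members was the highest in these markers in both groups. In the other groups they ranged from 144.6 to 366.4 CPM (Apoe-/-Mif-/- at 24 weeks) and from 156.6 to 839.1 CPM (Apoe-/- at 42 weeks). Of the 9, Cox7a1 and Cox8b encode subunits of complex IV, so this sum is in part a sum of respiratory chain genes. In library 2 of Apoe-/-Mif-/- at 42 weeks that part was large. Cox8b gave 141.5 counts there per 100 counts of Cox8a, which was at 2054 CPM, against 5776 CPM for the sum of the markers. Ucp1, the uncoupling protein that defines brown fat, was at 3448, 5.74, 12.9 and 1181 CPM in Apoe-/- at 24 weeks and at 21.1, 1279, 5.99 and 52.9 CPM in Apoe-/-Mif-/- at 42 weeks. It was at 0 in 1 library of Apoe-/-Mif-/- at 24 weeks, where Elovl3 and Otop1 of the same list were at 0 in all 4 libraries. The 10 skeletal muscle markers summed to 5312, 25.49, 51.82 and 3235 CPM in Apoe-/- at 24 weeks and to at most 467 CPM elsewhere. In Apoe-/-Mif-/- at 42 weeks they summed to 277.9, 296.7, 24.9 and 467 CPM, highest in library 4 rather than library 2. White adipocyte markers (12 genes) reached 23030 CPM in the first of the high libraries and 25160 CPM in the second, and 548.8 to 11420 CPM in the other 14. The part of these tissues in the levels of the members was not tested. Smooth muscle markers, which define the vessel wall, were present in every library at 1152 to 20320 CPM, with the lowest value in library 1 of Apoe-/- at 24 weeks, and macrophage markers at 1888 to 36990 CPM, also lowest there. Library 2 of Apoe-/-Mif-/- at 42 weeks differed, with macrophage markers at 34110 CPM, the highest of its group, and smooth muscle markers at 4786 CPM.

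The 13 subunits encoded by mitochondrial DNA summed to 106700, 6097, 9820 and 49940 CPM in Apoe-/- at 24 weeks, the same order of libraries as for the nuclear members. In Apoe-/-Mif-/- at 42 weeks they summed to 85720, 92830, 15930 and 120900 CPM, where libraries 1 and 4 were as high as library 2 although their nuclear members were not. Nuclear members per mitochondrially encoded count therefore ranged from 0.223 in library 4 of that group to 1.90 in library 3 of Apoe-/-Mif-/- at 24 weeks. Cytosolic ribosomal protein genes (85 genes), also abundant and nuclear, summed to 24310, 23060, 23350 and 20430 CPM in Apoe-/- at 24 weeks and did not share the excess of library 1. In Apoe-/-Mif-/- at 42 weeks they summed to 57250, 55930, 26380 and 35820 CPM, where library 2, the other library high in members, was among the highest in these genes too.

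**Figure D2:**
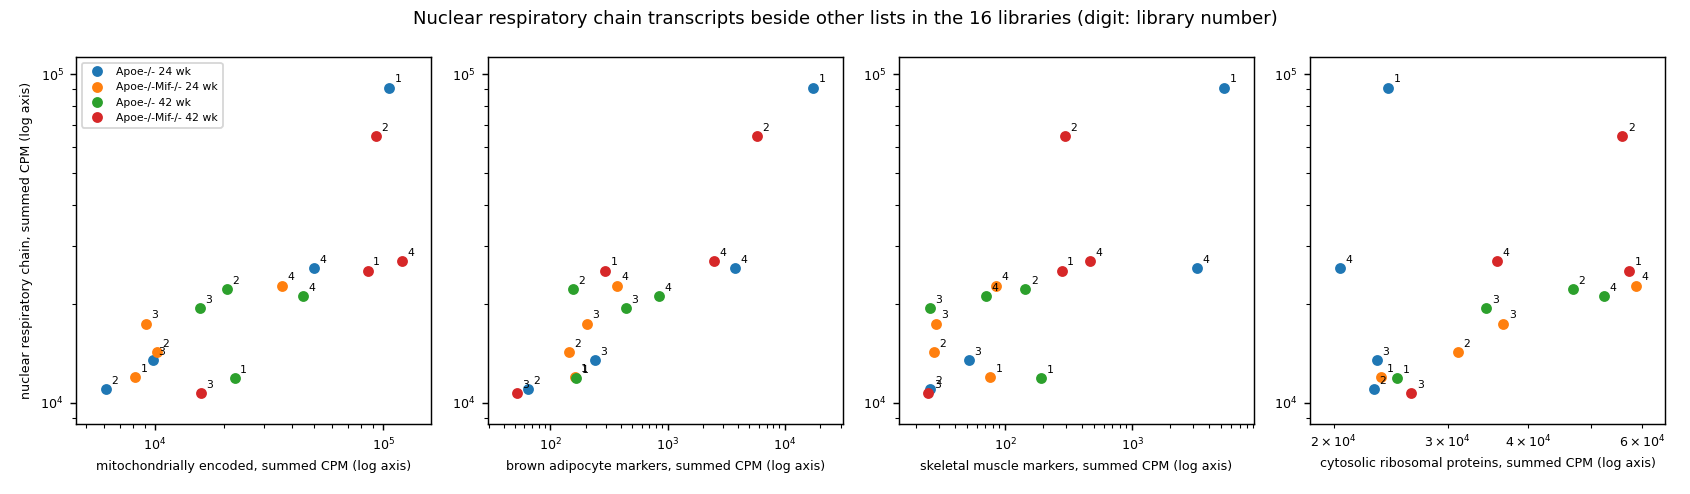
Summed CPM of the nuclear members (vertical, log axis) against the summed CPM of 4 other lists (horizontal, log axes), 1 point per library, numbered within its group. The 2 libraries highest in members, at 90980 and 64800 CPM, are also the highest in brown adipocyte markers (17480 and 5776 CPM), whereas ribosomal protein genes lie at 24310 CPM in the first of them, in the lower range of all libraries, and at 55930 CPM in the second, in the upper range. The brown adipocyte list includes Cox7a1 and Cox8b, which encode subunits of complex IV.

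The effect of Mif deletion at 24 weeks was asked first. No member passed edgeR's quasi-likelihood test at a Benjamini-Hochberg adjusted p under 0.05 (0 of 80, background 0.047% of 10634 genes), 6 had an unadjusted p under 0.05 (background 7.33%), and DESeq2 called 0 (background 1.95%). Fitted log2 fold changes, Apoe-/-Mif-/- over Apoe-/-, were negative for 76 of 80 members (background 54.9%), with a median of -1.12 against -0.18 over all genes tested. The medians were -1.19 for complex I (37 of 37 negative), -1.03 for II (4 of 4), -1.67 for III (9 of 9), -1.25 for IV (11 of 13) and -0.81 for V (15 of 17). The 4 positive members were Atp5g1, Atp5j, Cox7a2l and Cox6a2. In 2 members the groups did not overlap with Apoe-/-Mif-/- lower, Ndufs7 and Uqcrfs1 (background 2.29%), and in 1 with it higher, Atp5g1 (background 1.55%). Outside the members, 3 of 8 skeletal muscle and 1 of 11 white adipocyte markers tested were called, all lower in Apoe-/-Mif-/-. Without library 1 of Apoe-/- the median over all members was -0.04, and the complex medians from I to V were -0.08, -0.21, -0.46, -0.04 and 0.16. Over all genes 0 were called without it.

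At 42 weeks the medians had the opposite sign, in comparisons that share no library with those at 24 weeks. For Mif deletion at 42 weeks edgeR's quasi-likelihood test called 0 of 80 members and 0% of all genes, 7 members had an unadjusted p under 0.05 (background 17.3%), and DESeq2 called 6 (background 8.48%), among them Cox4i2, Sdha, Ndufa10, Cox7a2 and Sdhc. Fold changes were positive for 64 of 80 members (background 51.8%), with a median of 0.73 on the log2 scale against 0.09 over all genes. Complex IV had the highest median, 1.21 with 13 of 13 positive, complex II 1.00 with 2 of 4, III 0.58 with 7 of 9, I 0.56 with 28 of 37 and V 0.49 with 14 of 17. Atp5b and Atp5md did not overlap between the groups, both higher in Apoe-/-Mif-/- (background 1.17%), and no member did so in the lower direction (background 1.03%). Leaving out library 2 of Apoe-/-Mif-/- took the median over all members to 0.20, and those of complexes I, IV and V to 0.09, 0.66 and 0.26. The median of complex II was 1.81 without library 2 of Apoe-/-. That of complex III was 0.34 without library 1 of Apoe-/-, 1.02 without library 4 of Apoe-/-Mif-/-, and -0.15, of the opposite sign, with limma voom. That of complex V was 0.97 without library 4 of Apoe-/-.

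The durations were compared within each genotype, and both of these comparisons reuse the libraries of the genotype comparisons. For 42 against 24 weeks in Apoe-/- edgeR's quasi-likelihood test called 0 of 80 members and 0% of all genes, 7 members had an unadjusted p under 0.05 (background 12.2%), and DESeq2 called Cox4i2 alone (1 of 80, background 3.5%). Fold changes were negative for 72 of 80 members (background 52.7%), with a median of -1.12 against -0.12 over all genes and complex medians of -1.12, -1.23, -1.40, -1.18 and -0.43 from I to V. Without library 1 at 24 weeks the median over all members was 0.12 and the complex medians were 0.04, -0.28, -0.06, 0.07 and 0.34. Without library 2 at 42 weeks the median of complex II was -2.01, without library 4 that of complex V was -0.81, and on the deposited log2 values the median of complex V was 0.05, of the opposite sign. Cox4i2 was the only member without overlap, lower at 42 weeks (background 3.09%), and none was higher without overlap (background 1.06%).

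For 42 against 24 weeks in Apoe-/-Mif-/- edgeR's quasi-likelihood test called 0 of 80 members (background 0.122%), 6 members had an unadjusted p under 0.05 (background 13.1%), and DESeq2 called Sdha alone (background 5.28%). Fold changes were positive for 71 of 80 members (background 52.9%), with a median of 0.76 against 0.12 over all genes and complex medians of 0.60, 0.96, 0.98, 1.07 and 0.57 from I to V. Atp5g1 and Cox6a2 were lower at 42 weeks without overlap (background 3.03%) and Ndufb1 higher (background 1.35%). Leaving out library 2 at 42 weeks gave a median of 0.42, with 0.39, 0.62, 0.63 and 0.49 for complexes I to IV. Leaving out library 4 at 24 weeks gave 1.04 for complex I and 1.56 for complex II. Outside the members, 1 of 11 tested white adipocyte markers was called, higher at 42 weeks.

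**Figure D3:**
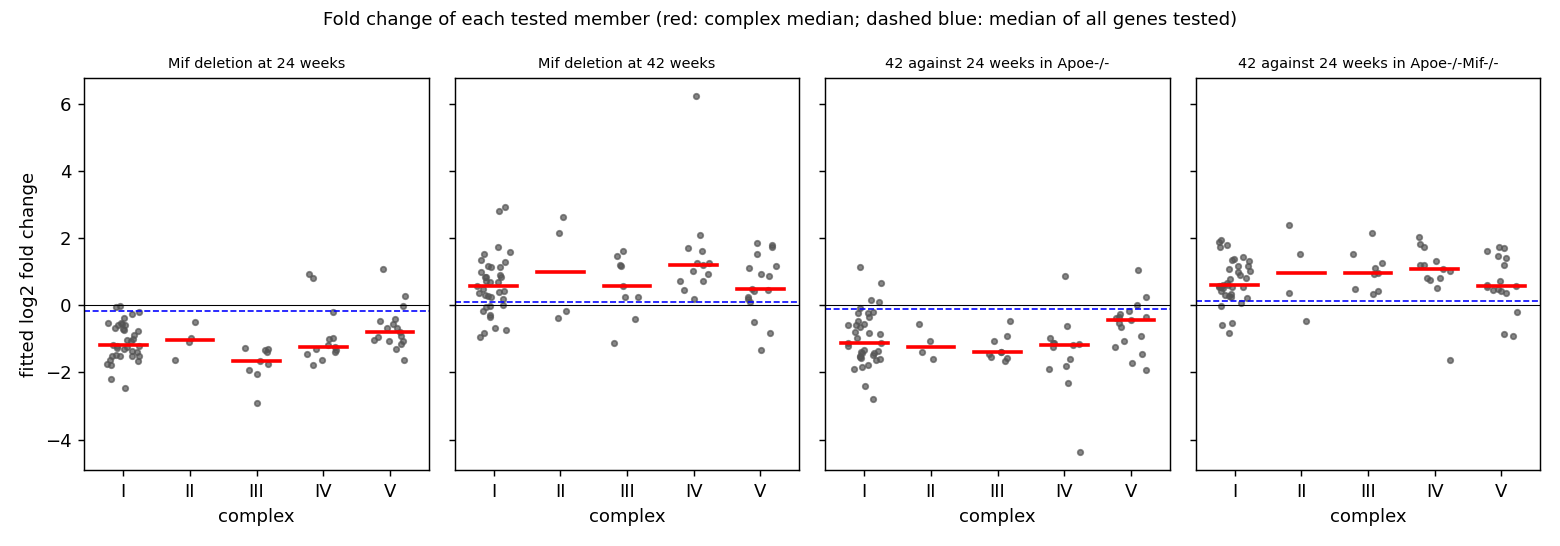
Fitted log2 fold change of each of the 80 tested members in 4 comparisons, by complex (grey points), with the complex median in red and the median of all genes tested as a dashed blue line. Complex medians lie between -1.67 and -0.81 for Mif deletion at 24 weeks and between 0.49 and 1.21 at 42 weeks, and the highest single value is Cox4i2 at 6.23.

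Whether the effect of Mif deletion differed between 42 and 24 weeks was tested by the interaction term, which reuses all 16 libraries. edgeR's quasi-likelihood test called 0 of 80 members (background 0.686%), 19 had an unadjusted p under 0.05 (background 14.2%), and DESeq2 called 7 (background 5.13%), among them Cox4i2, Sdha, Cyc1, Ndufa10, Cox7a2 and Ndufa3. Interaction terms were positive for 74 of 80 members (background 54%), with a median of 1.89 on the log2 scale against 0.26 over all genes and complex medians of 1.89, 2.03, 2.48, 2.19 and 1.39 from I to V. Outside the members, Cox8b, the complex IV gene kept as a brown adipocyte marker, was called (term 7.93 ± 1.66 SE, edgeR adjusted p = 0.0237). Counting it, 4 of 9 brown adipocyte, 4 of 8 skeletal muscle, 1 of 11 white adipocyte and 1 of 10 endothelial markers tested were called, all positive. With library 1 of Apoe-/- at 24 weeks and library 2 of Apoe-/-Mif-/- at 42 weeks both left out, 42 members were positive and 38 negative, with a median of 0.05 against 0.11 over the 11671 genes then tested. Of those genes 0 were called.

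Without both of these libraries, an alternative chosen after their levels were seen, the medians over all members were 0.03 and 0.14 for Mif deletion at 24 and 42 weeks and 0.21 and 0.38 for the longer diet in Apoe-/- and Apoe-/-Mif-/-. Members split 37 negative to 43 positive, 33 to 47, 36 to 44 and 22 to 58 in the same order, and edgeR's quasi-likelihood test again called 0 members in each. Complex III had the most negative median for Mif deletion at 24 weeks, -0.43, and complex II the most positive at 42 weeks, 0.98 with 2 of 4 members positive.

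The scaling of the libraries moved these values by different amounts for members and for all genes. With DESeq2's size factors in place of TMM the median over all genes tested moved by 0.06 and 0.19 on the log2 scale for Mif deletion at 24 and 42 weeks, by 0.28 and 0.42 for the longer diet in Apoe-/- and Apoe-/-Mif-/-, and by 0.11 for the interaction. Relative to that median, the median member stood at -0.94 (TMM) and -1.08 (size factors) for Mif deletion at 24 weeks, at 0.64 and 0.96 at 42 weeks, at -0.99 and -1.19 for the longer diet in Apoe-/-, and at 0.64 and 0.97 in Apoe-/-Mif-/-. By sign alone, not relative to that median, members split 75 negative to 5 positive, 11 to 69, 68 to 12 and 6 to 74 with size factors in the same order, while 46.7%, 55.4%, 53.4% and 60.6% of all genes tested were positive.

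**Figure D4:**
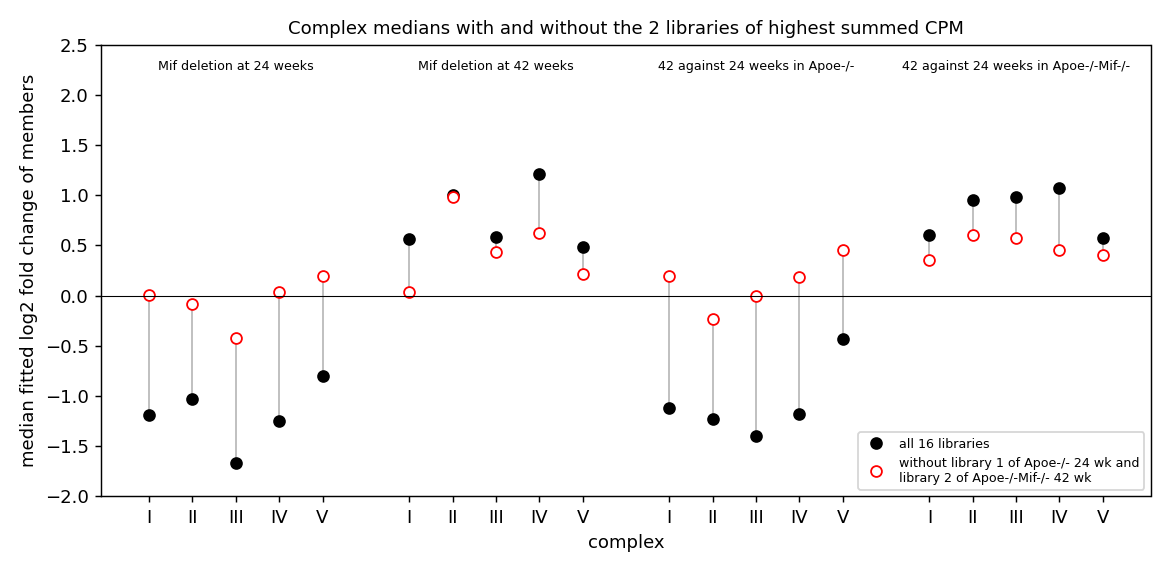
Median fitted log2 fold change of the members of each complex in 4 comparisons, from all 16 libraries (filled black) and without library 1 of Apoe-/- at 24 weeks and library 2 of Apoe-/-Mif-/- at 42 weeks (open red). For Mif deletion at 24 weeks complex I moves from -1.19 to 0.01 and complex V from -0.81 to 0.19, while complex II at 42 weeks stays near 1.

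Within complex I, Ndufs7, the core subunit that carries the last iron-sulfur cluster before ubiquinone, was at 2680, 257, 407 and 403 CPM in Apoe-/- and at 170.3, 229, 176 and 103 CPM in Apoe-/-Mif-/- at 24 weeks. The 4 Apoe-/-Mif-/- values were all lower than the lowest Apoe-/- value, also with library 1 set aside. Its log2 fold change was -2.47 ± 0.853 (SE) with an edgeR adjusted p of 0.344, and it was -1.06 (edgeR adjusted p = 0.955) without library 1 of Apoe-/-. At 42 weeks, where the genotypes overlapped, it was -0.01 ± 0.809.

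Ndufa10, an accessory subunit of the membrane arm, was at 84.3, 13, 57.7 and 54.4 CPM in Apoe-/- and at 503, 765, 70.6 and 134 CPM in Apoe-/-Mif-/- at 42 weeks, where only library 1 of Apoe-/- and library 3 of Apoe-/-Mif-/- overlapped. The log2 fold change was 2.82 ± 0.996 (SE, edgeR adjusted p = 0.18). Ndufb8, another accessory subunit, ranged from 44.3 to 472 CPM in Apoe-/- and from 135 to 2460 CPM in Apoe-/-Mif-/- at 42 weeks, with wide overlap. The most counted members of complex I, the accessory subunits Ndufa2, Ndufb7 and Ndufa13, had log2 fold changes between -0.52 and -0.06 at 24 weeks and between 0.32 and 1.54 at 42 weeks for Mif deletion. The 7 core subunits were all negative for Mif deletion at 24 weeks, with a median of -1.64, and 4 of 7 were positive at 42 weeks, with a median of 0.70. Ndufb1, singled out after its values were seen because its groups did not overlap, was at 22.3, 20.7, 21.1 and 19.4 CPM in Apoe-/-Mif-/- at 24 weeks and at 39.0, 25.1, 101 and 43.9 CPM at 42 weeks (log2 fold change 1.33 ± 1.26 SE, edgeR adjusted p = 0.685).

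Complex II, succinate dehydrogenase, has no subunit from mitochondrial DNA. Sdha, the flavoprotein that oxidises succinate, was at 386, 73.6, 197 and 486 CPM in Apoe-/- and at 41.9, 58.5, 246 and 23.1 CPM in Apoe-/-Mif-/- at 24 weeks. At 42 weeks the values were 52.7, 191, 123 and 67.7 CPM in Apoe-/- and 1026, 529, 49.8 and 337 CPM in Apoe-/-Mif-/-. At 24 weeks library 3 without Mif fell inside the Apoe-/- range and the other 3 below it. At 42 weeks library 3 without Mif fell below the Apoe-/- range and the other 3 above it, and the interaction term was 3.78 ± 1.34 (SE, edgeR adjusted p = 0.184). Sdhc, a membrane anchor, was at 23.2, 209, 159 and 25.8 CPM in Apoe-/- and at 636, 1338, 149 and 449 CPM in Apoe-/-Mif-/- at 42 weeks (log2 fold change 2.62 ± 0.935 SE, edgeR adjusted p = 0.18). Library 3 of the latter fell inside the Apoe-/- range and the other 3 above it. Sdhb, the iron-sulfur subunit, ran the other way in library 4 of Apoe-/-Mif-/- at 42 weeks, at 93.8 CPM against 676, 568 and 196 CPM in the other 3. Sdhd, the second anchor, had the widest spread within groups of all tested members (SD 2.04 on the log2 scale), from 0 CPM in library 1 of Apoe-/- at 42 weeks, the shallowest library, to 225 CPM in library 1 at 24 weeks.

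In complex III, Uqcrfs1, the Rieske iron-sulfur protein that takes electrons from ubiquinol, was at 1074, 192, 156 and 571 CPM in Apoe-/- and at 111, 30.4, 66.4 and 55.5 CPM in Apoe-/-Mif-/- at 24 weeks. The groups did not overlap. Its log2 fold change was -2.92 ± 1.01 (SE, edgeR adjusted p = 0.345), the most negative of the members, and -2.20 (edgeR adjusted p = 0.669) without library 1 of Apoe-/-. At 42 weeks the genotypes overlapped, at 29.5, 385, 328 and 22.3 CPM and at 56.5, 48.8, 78.1 and 167 CPM. Cyc1, cytochrome c1, was at 1189, 105, 122 and 307 CPM in Apoe-/- and 43.9, 154, 121 and 133 CPM in Apoe-/-Mif-/- at 24 weeks, where the groups overlapped, and its interaction term was 3.54 ± 1.29 (SE, edgeR adjusted p = 0.194). The most counted members, the small subunits Uqcrq and Uqcr11 and the core protein Uqcrc1, had log2 fold changes of -1.33, -1.30 and -1.75 at 24 weeks and 1.46, 0.26 and 0.24 at 42 weeks for Mif deletion.

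Complex IV holds the subunits that exist in several tissue forms. Cox4i1, the widespread form of Cox4, was at 6991, 657, 739 and 2075 CPM in Apoe-/- at 24 weeks and at 733, 6184, 664 and 1680.0 CPM in Apoe-/-Mif-/- at 42 weeks, following the pattern of the summed members. Cox4i2, the form known from lung and from low oxygen, did not follow it. It was at 19.7, 14.9, 7.95 and 53.5 CPM in Apoe-/- and at 34.1, 37.3, 5.88 and 6.94 CPM in Apoe-/-Mif-/- at 24 weeks.

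At 42 weeks Cox4i2 was at 2.11, 0.591, 0.26 and 2.09 CPM in Apoe-/- and at 1.03, 83.6, 17.2 and 243 CPM in Apoe-/-Mif-/-. These Apoe-/- levels rest on 1, 2, 1 and 3 counts, so the fold changes and shares that use them are imprecise. Every Apoe-/- library at 42 weeks lay below every one at 24 weeks, and between the genotypes library 1 of Apoe-/-Mif-/- overlapped with Apoe-/-. The log2 fold change was 6.23 ± 1.78 (SE, edgeR adjusted p = 0.176) for Mif deletion at 42 weeks, 4.83 without library 4 of Apoe-/-Mif-/-, and -4.38 ± 1.66 (adjusted p = 0.322) for the longer diet in Apoe-/-. Per 100 counts of Cox4i1, Cox4i2 gave 0.02 to 0.278 counts in Apoe-/- at 42 weeks and 0.14, 1.35, 2.60 and 14.5 counts in Apoe-/-Mif-/-. Library 1 of Apoe-/-Mif-/- fell inside the Apoe-/- range of this share and the other 3 above it.

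Cox6a2, the heart and muscle form of Cox6a, was at 176, 10.5, 7.51 and 122 CPM in Apoe-/- and at 104, 136, 87.1 and 277 CPM in Apoe-/-Mif-/- at 24 weeks (log2 fold change 0.94 ± 1.14 SE, edgeR adjusted p = 0.965). Relative to its counterpart Cox6a1 the groups separated. Cox6a2 gave 4.52, 3.43, 1.99 and 13.1 counts per 100 counts of Cox6a1 in Apoe-/- and 32.0, 28.8, 15.3 and 43.7 in Apoe-/-Mif-/- at 24 weeks, without overlap. The share was 1.65 to 4.55 in Apoe-/- and 2.96 to 6.59 in Apoe-/-Mif-/- at 42 weeks, below every library of Apoe-/-Mif-/- at 24 weeks. The 10 cardiac muscle markers were also highest in Apoe-/-Mif-/- at 24 weeks. They summed to 1661, 1359, 1630 and 4867 CPM in Apoe-/-Mif-/- at 24 weeks and to 144 to 1170 CPM in the other 12 libraries, and of the 10 only Myh7 and Ryr2 were at 0 in any library. Within Apoe-/-Mif-/- at 42 weeks the share of Cox6a2 was 6.18, 2.96, 6.59 and 3.545. The markers summed to 727.4, 1170, 258.9 and 850.2 CPM there, in the opposite order of libraries. Their part in the share of Cox6a2 was not tested.

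Cox6b1, Cox7a2, Cox7b and Cox8a, the widespread forms of further small subunits, had log2 fold changes of -1.31, -1.34, -1.40 and -1.64 for Mif deletion at 24 weeks and 0.73, 2.10, 1.25 and 0.18 at 42 weeks. Cox6c, which has no tissue form among the tested members, had -1.77 ± 0.794 at 24 weeks (SE, edgeR adjusted p = 0.624). Cox7a2l lay outside the pattern, at 78.3 CPM in library 1 of Apoe-/- at 24 weeks against 184, 178 and 76.9 CPM in libraries 2 to 4. Of the untested forms, the testis form Cox6b2 had 69 counts over all libraries, Cox6c2 had 25, Cox7b2 had 7 and the testis form Cox8c had 281, of which 278 fell in library 4 of Apoe-/- at 24 weeks.

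**Figure D5:**
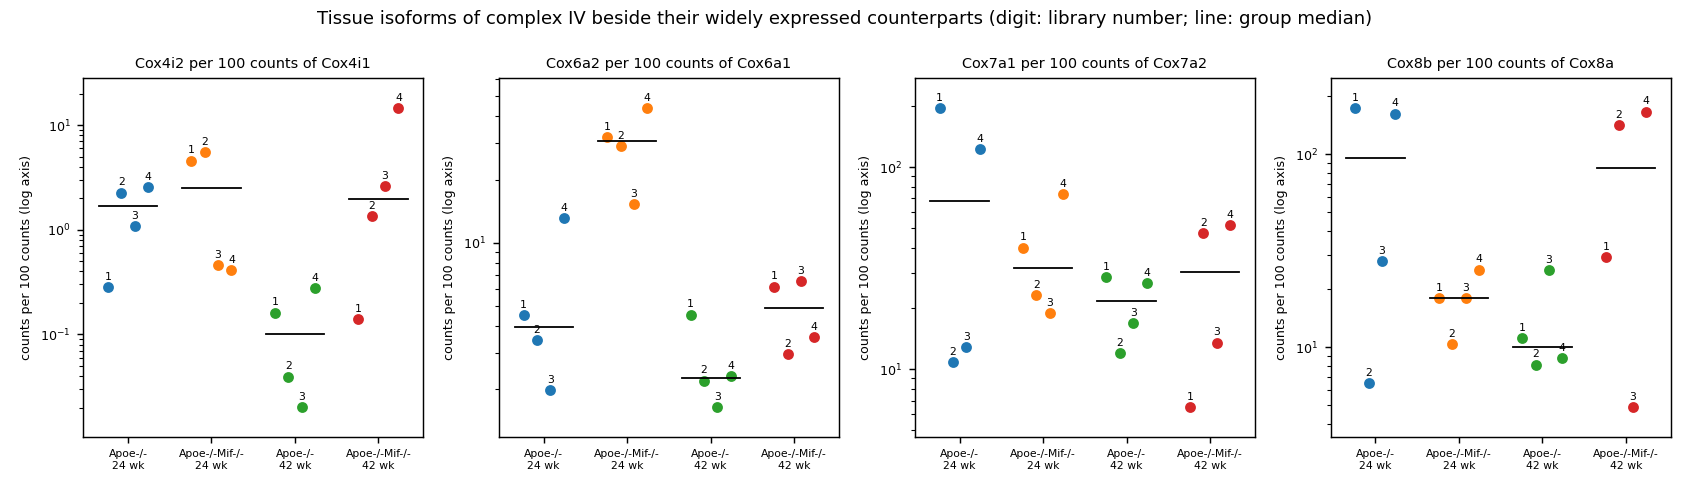
Counts of a tissue form of complex IV per 100 counts of its widespread counterpart (log axes), 1 point per library, numbered within each group, with group medians as lines. Cox6a2 per Cox6a1 lies between 15.3 and 43.7 in Apoe-/-Mif-/- at 24 weeks, above all other libraries, and Cox7a1 and Cox8b, which are markers and not members, are high in libraries 1 and 4 of Apoe-/- at 24 weeks. Cox8b per Cox8a is 173.7 and 163.1 there, and similarly high in libraries 2 and 4 of Apoe-/-Mif-/- at 42 weeks (141.5 and 166.8).

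In complex V, Atp5b, the catalytic beta subunit, was at 289, 457, 477 and 257 CPM in Apoe-/- and at 1292, 2237, 509.6 and 1354 CPM in Apoe-/-Mif-/- at 42 weeks. The groups did not overlap, although library 3 of Apoe-/-Mif-/- stood close to the Apoe-/- range. The log2 fold change was 1.86 ± 0.678 (SE, edgeR adjusted p = 0.181), and the interaction term was 2.93 ± 0.947 (adjusted p = 0.134). Atp5a1, the alpha subunit that pairs with it in the catalytic head, was at 603, 588, 463 and 1021 CPM and at 649, 412, 76.2 and 751 CPM in the same groups, which overlapped, with a log2 fold change of -0.50 ± 0.703. Atp5d, the delta subunit of the central stalk, had log2 fold changes of -1.16 ± 0.779 at 24 weeks and 0.93 ± 0.776 at 42 weeks for Mif deletion.

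Atp5g1, which encodes the ring subunit also made from Atp5g2 and Atp5g3, and Atp5md, a small membrane subunit, were singled out after their values were seen because their groups did not overlap. Atp5g1 was at 136, 157, 186 and 175 CPM in Apoe-/- and at 297, 293, 313 and 481 CPM in Apoe-/-Mif-/- at 24 weeks, opposite to most members, and library 1 of Apoe-/- was the lowest of its group (log2 fold change 1.08 ± 0.823 SE, edgeR adjusted p = 0.885). Atp5md was at 54.8, 39.6, 56.9 and 41.2 CPM in Apoe-/- and at 173, 248, 58.2 and 189 CPM in Apoe-/-Mif-/- at 42 weeks (log2 fold change 1.79 ± 1.02 SE, edgeR adjusted p = 0.357).

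Other genes of the pathway were read from the same fit. Of all genes tested, 54.9% were negative for Mif deletion at 24 weeks and 51.8% positive at 42 weeks. In Apoe-/- at 24 weeks library 1 was high here too: cycle enzymes summed to 10230, 1410, 1358 and 3472 CPM, and the carriers named last to 8065, 1663, 2593 and 2950 CPM. The list medians below include that library and are not given without it. The tricarboxylic acid cycle enzymes, which supply NADH and succinate, were negative in 13 of 13 for Mif deletion at 24 weeks (median log2 fold change -1.88) and positive in 8 of 13 at 42 weeks (0.47), and 0 passed edgeR's quasi-likelihood test in any comparison. Of 11 tested mitochondrially encoded subunits, 11 were negative at 24 weeks (median -1.55) and 11 positive at 42 weeks (1.55), with 0 called. Assembly factors, the proteins that build the complexes without staying in them, were negative in 28 of 41 at 24 weeks (median -0.53) and positive in 20 of 41 at 42 weeks (-0.01), with 0 called. Of 10 regulators of mitochondrial biogenesis, such as Tfam and Nrf1, 4 were negative at 24 weeks (median 0.33) and 4 positive at 42 weeks (-1.21), with 0 called. Among 21 electron carriers, ubiquinone enzymes and transporters, 17 were negative at 24 weeks (-0.65) and 18 positive at 42 weeks (1.37). From that list Coq6, a hydroxylase of ubiquinone synthesis, passed the interaction test with a term of 10.15 ± 2.24 (SE, edgeR adjusted p = 0.0294). Coq6 was at 129, 2.87, 23.5 and 9.69 CPM in Apoe-/- and 2.62, 0.615, 3.25 and 4.63 CPM in Apoe-/-Mif-/- at 24 weeks, and at 6.32, 1.182, 0.78 and 1.40 CPM in Apoe-/- and 525, 72.4, 35.7 and 16.3 CPM in Apoe-/-Mif-/- at 42 weeks. Its genotypes did not overlap at 42 weeks, and at 24 weeks 1 Apoe-/- library fell inside the range without Mif. The levels in Apoe-/- at 42 weeks and in Apoe-/-Mif-/- at 24 weeks, at most 6.32 CPM, lie near the floor, so the size of the term is imprecise. Leaving out any of 10 of the 16 libraries ended the call. These were the 4 libraries of Apoe-/- at 42 weeks, the 4 of Apoe-/-Mif-/- at 24 weeks, library 1 of Apoe-/- at 24 weeks (term 8.36, edgeR adjusted p = 0.0742) and library 1 of Apoe-/-Mif-/- at 42 weeks (8.18, adjusted p = 0.0767). Without both high libraries the term was 8.62 (adjusted p = 0.092).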

How the data were processed

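Whole-vessel RNA of 16 mice was sequenced, with 1 library per separately named mouse. Per the submitters' processing notes, the tools were FastQC 0.11.5, Trim Galore 0.6.4, cutadapt 1.18 and STAR 2.5.2b with genome build GRCm39. The read counter and the annotation are not given in the sources used here. The authors deposited raw counts per gene (55359 entries) and a table of variance-stabilised log2 values for 9578 genes, the same genes that reach 20 counts in 4 or more libraries. An entry with no gene name (at most 0.00257% of a library) and 2 reporter entries were left out, which left 55356 genes.

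Counts were fitted in R 4.3.3 with edgeR 4.0.16: filterByExpr (minimum count 10, minimum total 15), TMM scaling, a mean per group fitted jointly to the 16 libraries (12 residual degrees of freedom), and the quasi-likelihood test with Benjamini-Hochberg adjustment over the 10634 genes kept. A gene was called at an adjusted p under 0.05. Fold changes are log2 values from that fit, and each SE is the fold change divided by the square root of the F statistic, which is approximate. Alternatives were DESeq2 1.42.0 and limma 3.58.1 (voom on the counts, and limma on the deposited log2 values), other scaling, filters, the groups of 1 comparison alone and each library left out in turn.

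The members, the 16 gene lists and the tests were chosen with earlier results of these data known. Named members were the 3 most counted of each complex (all of complex II), the 5 of smallest p in each comparison, and forms with a tissue counterpart. The values of 1 member that met this rule are not reported here. Promoter windows come from RefSeq (GRCm38.p6), a build other than that of the counts, so their coordinates were not joined to the files. On counts simulated from these libraries for Mif deletion at 24 weeks (10634 genes), the fit recovered 0% of 4-fold, 28% of 16-fold, 68% of 64-fold and 70% of 256-fold changes. Library depth ran from 378066 to 8649518 counts. No molecular identifiers were used, so read counts are not counts of molecules.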

Additional observations from a re-analysis of the deposited data

Results flagged for a closer look

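In groups of 4 mice, a library was listed here when the gap between it and its nearest neighbour, on the scale of log2(CPM + 1), took up more than 0.829 of the range of its group (Dixon's 95% value). Chance alone marks about 5% of groups, and 11 of the 152 groups tested, over the named members, the sum of each complex and the sum of all members, met the rule, so single cases should be read with that number in mind. No explanation was tested for any of them.

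In Apoe-/- at 24 weeks, library 1 stood far above the other 3 for Sdhc, the complex II anchor (884.8 CPM against 107.2 to 152.1 CPM), and for Atp5d, the delta subunit of the ATP synthase (2282 CPM against 273.5 to 352.9 CPM). It is the library that was highest in summed members. In Apoe-/-Mif-/- at 24 weeks, library 4 stood above the others for Atp5b (958.5 CPM against 451.2 to 477.3 CPM) and for Atp5d (624 CPM against 261.9 to 298.6 CPM), and library 1 stood below them for Cox6c (161.7 CPM against 264.6 to 288.6 CPM). In Apoe-/- at 42 weeks, library 4 stood above the others for Cox6a1, the widespread form of Cox6a (1050.0 CPM against 463.7 to 496.4 CPM).

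The remaining cases concern tissue forms of complex IV that were detected in 1 library of a group and at 0 in the other 3. Such a group meets the rule at any count, so these flags carry no information beyond detection. Cox7b2 was at 0.4626 CPM (1 count) in library 4 of Apoe-/-Mif-/- at 24 weeks, at 1.299 CPM (5 counts) in library 3 of Apoe-/- at 42 weeks and at 0.5137 CPM (1 count) in library 1 of Apoe-/-Mif-/- at 42 weeks. Cox8c, the testis form of Cox8, was at 86.9 CPM (278 counts) in library 4 of Apoe-/- at 24 weeks and at 0.2395 CPM (1 count) in library 3 of Apoe-/-Mif-/- at 42 weeks.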

How the results depend on the processing

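Over all genes tested, edgeR's quasi-likelihood test called 5 for Mif deletion at 24 weeks, 0 for Mif deletion at 42 weeks, 0 for the longer diet in Apoe-/-, 13 for the longer diet in Apoe-/-Mif-/- and 73 for the interaction. With DESeq2's size factors in edgeR the count was 22 for the longer diet in Apoe-/-Mif-/- and 0 for Mif deletion at 24 weeks. With DESeq2 the count was 207 for Mif deletion at 24 weeks, 902 for Mif deletion at 42 weeks, 372 for the longer diet in Apoe-/-, 562 for the longer diet in Apoe-/-Mif-/- and 546 for the interaction. With limma voom the count was 0 for the interaction, Mif deletion at 24 weeks and the longer diet in Apoe-/-Mif-/-. With limma on the deposited variance-stabilised log2 values the count was 0 for Mif deletion at 24 weeks, 2 for the longer diet in Apoe-/-Mif-/- and 0 for the interaction. With no filter on low counts the count was 117 for Mif deletion at 24 weeks, 150 for Mif deletion at 42 weeks, 18 for the longer diet in Apoe-/-, 419 for the longer diet in Apoe-/-Mif-/- and 426 for the interaction. With a filter of at least 20 counts in at least 4 libraries the count was 1 for Mif deletion at 24 weeks. With only the 2 groups compared in the fit the count was 0 for Mif deletion at 24 weeks and 25 for Mif deletion at 42 weeks. With the high libraries left out together (library 1 of Apoe-/- at 24 weeks and library 2 of Apoe-/-Mif-/- at 42 weeks) the count was 0 for Mif deletion at 24 weeks, 2 for the longer diet in Apoe-/-Mif-/- and 0 for the interaction. Counts under the other combinations of setting and comparison stayed within 1.5 times of the first count. Leaving out each library in turn gave 0 to 1 genes for Mif deletion at 42 weeks, 0 to 124 genes for the interaction, 0 to 33 genes for the longer diet in Apoe-/-Mif-/- and 0 to 21 genes for Mif deletion at 24 weeks. The count moved by more than 1.5 times without any of the 8 libraries compared for the longer diet in Apoe-/-Mif-/-, likewise for each of the 8 for Mif deletion at 24 weeks, and without 14 of the 16 for the interaction. Members called were 0 in each comparison by edgeR's quasi-likelihood test. They were 6 for Mif deletion at 42 weeks, 1 for the longer diet in Apoe-/-, 1 for the longer diet in Apoe-/-Mif-/- and 7 for the interaction by DESeq2, 1 for the interaction with no filter on low counts, and 0 to 1 for the interaction with each library left out in turn, the highest without library 3 of Apoe-/-Mif-/- at 42 weeks. By the other alternatives they were 0 in each comparison.

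With DESeq2's size factors in edgeR and with DESeq2 itself, the medians that moved past the spread between mice or changed sign were, for the longer diet in Apoe-/-Mif-/-, 1.31 for complex I, 1.68 for complex III, 1.29 for complex V and 1.51 for all members. With limma voom, the medians that moved past the spread between mice or changed sign were, for Mif deletion at 24 weeks, -0.24 for complex IV. For Mif deletion at 42 weeks they were -0.15 for complex III (sign reversed). For the longer diet in Apoe-/-Mif-/- they were 0.31 for complex III. For the interaction they were 0.52 for complex I, 0.55 for complex III, 0.59 for complex IV, 0.23 for complex V and 0.52 for all members. With limma on the deposited variance-stabilised log2 values, the medians that moved past the spread between mice or changed sign were, for the longer diet in Apoe-/-, 0.0493 for complex V (sign reversed). With the high libraries left out together, the medians that moved past the spread between mice or changed sign were, for Mif deletion at 24 weeks, 0.00885 for complex I (sign reversed), -0.083 for complex II, -0.43 for complex III, 0.0311 for complex IV (sign reversed), 0.19 for complex V (sign reversed) and 0.0307 for all members (sign reversed). For the longer diet in Apoe-/- they were 0.20 for complex I (sign reversed), -0.00669 for complex III, 0.18 for complex IV (sign reversed), 0.46 for complex V (sign reversed) and 0.21 for all members (sign reversed). For the interaction they were -0.00129 for complex I (sign reversed), 0.55 for complex II, 0.63 for complex III, 0.29 for complex IV, 0.0401 for complex V and 0.0543 for all members.

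Leaving out each library in turn, the medians ranged, for Mif deletion at 24 weeks, from -1.43 to -0.0839 for complex I, -1.999 to -0.46 for complex III, -1.56 to -0.0362 for complex IV, -1.06 to 0.16 for complex V and -1.36 to -0.0415 for all members. The ranges were, for the longer diet in Apoe-/-, from -1.45 to 0.0402 for complex I, -1.71 to -0.0588 for complex III, -1.48 to 0.0735 for complex IV, -0.81 to 0.34 for complex V and -1.44 to 0.12 for all members. The ranges were, for the interaction, from 0.67 to 2.12 for complex I, 1.05 to 2.76 for complex III, 0.95 to 2.65 for complex IV, 0.50 to 1.65 for complex V and 0.76 to 2.13 for all members. The log2 ratios of mean summed CPM ranged, for Mif deletion at 24 weeks, from -1.26 to 0.0461 for complex I, -1.85 to -0.22 for complex III, -1.57 to 0.0243 for complex IV and -1.05 to 0.0315 for complex V. The ranges were, for the longer diet in Apoe-/-, from -1.10 to 0.21 for complex I, -1.504 to 0.13 for complex III, -1.42 to 0.18 for complex IV and -0.95 to 0.13 for complex V. In each of these ranges the end nearest to or past 0 came without library 1 of Apoe-/- at 24 weeks. The medians of complex II ranged from -1.46 to -0.21 for Mif deletion at 24 weeks, -2.01 to -0.28 for the longer diet in Apoe-/- and 0.88 to 2.80 for the interaction. For Mif deletion at 42 weeks complexes I to V ranged from 0.0853 to 0.83, 0.76 to 1.81, 0.34 to 1.02, 0.66 to 1.44 and 0.26 to 0.97. With both high libraries left out the log2 ratios of mean summed CPM were 0.0461, -0.22, 0.0243 and 0.0315 for complexes I, III, IV and V (Mif deletion at 24 weeks) and 0.21, 0.13, 0.18 and 0.13 for complexes I, III, IV and V (the longer diet in Apoe-/-).

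With CPM from DESeq2's size factors, or without the most counted member of each complex, every log2 ratio of summed CPM stayed within the spread between mice. Of 2517 alternative values of 29 named members 2501 stayed on the same side of the threshold and 16 passed it (14 of them by DESeq2). Their sign was less stable: 175 of these alternative values, 66 of them with 1 library left out, had the sign opposite to the first value, none of them past the threshold, and they touched 57 of the 145 combinations of member and comparison. Except where fewer libraries entered, the cause of these differences was not tested. Leaving out both high libraries, and the sums with a library left out, were chosen after seeing the data. No paired analysis was possible because the labels number the mice and not the replicates, so that no number is shared between groups. With 4 mice a group and 1099838 counts in the shallowest library compared, 28% of simulated 16-fold and 0% of 4-fold changes were called for Mif deletion at 24 weeks. These rates are for the changed genes of that simulation and were not measured for the members.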
